A study of Mus musculus with 24 samples.

Results

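Of the 20726 genomic windows listed as differentially hydroxymethylated between the Wt25 and AA10 mouse embryonic stem cell (ESC) lines, 773 windows carried no gene identifier, and these are described here. Members were chosen only by an empty gene field in the 2 deposited lists, so neither the direction nor the size of the 5hmC difference entered the choice. The empty field occurred in 3.73% of all listed windows, in 499 windows with higher 5hmC in Wt25 (4.13% of that list) and in 274 windows with higher 5hmC in AA10 (3.17% of that list). Both lines derived from ESCs of mixed C57BL/6J-129V background in which Tet1, Tet2 and Tet3 were all knocked out, grown in 2i medium with LIF, and both received a lentivirus for Flag-tagged human Tet3. Wt25 expressed the wild-type protein and AA10 the phosphor-mutant in which the serines at the cdk5 sites were replaced by alanine. Each line was a single puromycin-selected clone, so an effect of the mutation and a difference between the clones cannot be told apart. The lists pooled 3 5hmC immunoprecipitation (5hmCIP) libraries per line and hold positions only, so no fold change, read depth or replicate error could be given for any window.

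5-hydroxymethylcytosine (5hmC) is made from 5-methylcytosine by the Tet dioxygenases, mainly at CpG dinucleotides, and in ESCs it is found in gene bodies, at promoters and at enhancers. The gene field of the lists came from HOMER, which by default takes the nearest start site of a RefSeq transcript. RefSeq holds many long non-coding RNAs (lncRNAs), transcribed pseudogenes and predicted genes that can lack a partner in the Ensembl catalogue, and a window next to such a transcript can be left without an Ensembl identifier even where it lies inside a well known gene. Whether the empty fields described here arose in this way was not tested. lncRNAs are transcripts without a long open reading frame, several of which regulate neighbouring genes, and pseudogenes are disabled copies of coding genes.

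The sequences of 9 windows are shown first, since they mark the kinds of place at which the members lay. Each is the plus strand of GRCm38 in lower case with every CpG, the site at which 5hmC is found, in capitals. UTR bases are not printed, and promoter windows were chosen among those with at least 50 bases outside UTRs. For windows with higher 5hmC in Wt25, the promoter window closest to a start site (chr17:88125403-88125511, the 109 bases up to the start of Gm4832), the CpG-richest window outside UTRs and repeats (chr2:33642403-33642600, an exon of the lncRNA C130021I20Rik) and the CpG-richest such window of the largest locus (chr19:33614603-33614800, an intron of Gm8978) are given.
Gm4832: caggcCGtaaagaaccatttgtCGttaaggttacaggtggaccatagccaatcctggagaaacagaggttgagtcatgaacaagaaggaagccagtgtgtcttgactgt
C130021I20Rik: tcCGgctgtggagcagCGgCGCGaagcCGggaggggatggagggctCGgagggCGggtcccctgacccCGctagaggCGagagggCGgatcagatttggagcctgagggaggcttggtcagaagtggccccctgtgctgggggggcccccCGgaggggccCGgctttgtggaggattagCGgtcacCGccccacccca
Gm8978: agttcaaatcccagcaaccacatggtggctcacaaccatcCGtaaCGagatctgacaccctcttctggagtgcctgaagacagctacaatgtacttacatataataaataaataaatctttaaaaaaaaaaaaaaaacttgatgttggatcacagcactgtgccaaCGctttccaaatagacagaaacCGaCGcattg
The first of these windows held 4 CpGs in all, of which 2 fell in the part printed, and the others held 14 and 5 CpGs.

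For windows with higher 5hmC in AA10, the same rule gave chr8:126979603-126979800 (263 bp upstream of the lncRNA Gm29688, since the closer promoter window at Mira lay wholly in annotated UTR and that at 5730552O08Rik was not among the windows chosen from), chr6:30205603-30205800 (29.1 kb from the start of the lncRNA BB283400) and chr1:153404403-153404600 (an exon of the lncRNA E330020D12Rik). The adjacent pair of windows upstream of a Dlx6os1 start site (chr6:6862003-6862200 and chr6:6862203-6862400) and the CpG-richest member inside Elovl6 (chr3:129591003-129591200) were added after their values were seen, since they lie at a homeobox gene cluster and in the body of a coding gene.
Gm29688: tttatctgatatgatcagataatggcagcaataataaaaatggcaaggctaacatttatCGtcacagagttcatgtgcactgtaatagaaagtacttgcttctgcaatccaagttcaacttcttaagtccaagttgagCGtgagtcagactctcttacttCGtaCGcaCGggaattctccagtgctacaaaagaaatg
BB283400: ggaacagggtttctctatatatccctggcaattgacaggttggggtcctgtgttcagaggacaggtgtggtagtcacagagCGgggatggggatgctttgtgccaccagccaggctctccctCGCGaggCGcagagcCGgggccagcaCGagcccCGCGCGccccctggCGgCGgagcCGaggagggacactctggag
E330020D12Rik: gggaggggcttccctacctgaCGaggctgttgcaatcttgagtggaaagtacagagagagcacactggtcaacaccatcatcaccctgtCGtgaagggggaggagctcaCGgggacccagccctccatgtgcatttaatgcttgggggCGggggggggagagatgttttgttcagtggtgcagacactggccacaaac
Dlx6os1, 418 bp upstream: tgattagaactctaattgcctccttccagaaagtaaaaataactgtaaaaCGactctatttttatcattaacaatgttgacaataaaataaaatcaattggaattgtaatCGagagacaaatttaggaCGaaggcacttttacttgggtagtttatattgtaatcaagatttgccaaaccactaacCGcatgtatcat
Dlx6os1, 618 bp upstream: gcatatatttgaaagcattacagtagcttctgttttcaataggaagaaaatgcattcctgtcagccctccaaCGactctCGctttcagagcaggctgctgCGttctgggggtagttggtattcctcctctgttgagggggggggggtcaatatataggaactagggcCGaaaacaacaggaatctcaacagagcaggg
Elovl6 intron: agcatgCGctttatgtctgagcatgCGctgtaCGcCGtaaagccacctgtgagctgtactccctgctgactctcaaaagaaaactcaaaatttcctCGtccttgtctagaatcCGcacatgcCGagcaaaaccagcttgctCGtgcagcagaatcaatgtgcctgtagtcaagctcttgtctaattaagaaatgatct
These windows held 5, 12, 4, 4, 4 and 8 CpGs.

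To identify what lay at the windows without a gene ID, the nearest start site of a curated RefSeq transcript was found again for every listed window. This returned the gene of the deposited ID for 18484 of the 19933 windows whose ID had a symbol (92.7%), so the assignment was close to, but not the same as, that of the study. The nearest genes of the 773 windows were 337 in number. A non-coding RNA was nearest to 474 windows (61.3%), a pseudogene to 86 (11.1%) and a protein-coding gene to 213 (27.6%). Among windows with a gene ID, the shares were 12.4%, 2.59% and 82.1%. Since the empty gene field chose the members, these differences were not tested. The non-coding class consisted of 442 windows at 227 lncRNA genes, 22 windows nearest to RNase P RNA-like genes, 7 to snoRNA genes, 2 to Mascrna and 1 to Dlx1as. No window had a microRNA as nearest gene, against 578 windows with a gene ID.

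Provisional names dominated the nearest genes. Symbols of the form Gm followed by a number were nearest to 314 windows and symbols ending in Rik to 234, together 70.9% of the members against 16.8% of the windows with a gene ID. Clone or EST names accounted for 51 windows, symbols marked as pseudogenes (-ps) for 33, and opposite-strand transcripts for 15. In the later GENCODE vM21 catalogue, the symbol of the nearest gene was present for 561 windows (72.6%), against 96.9% of the windows with a gene ID. For 20 windows the nearest symbol was one that the lists gave as an ID elsewhere, among them 10 windows nearest to Fa2h, a fatty acid 2-hydroxylase of myelin lipids.

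Counted by window, the kind of nearest gene differed with the direction of the 5hmC change, but not when each nearest gene was counted once. Windows that share a nearest gene share its class and are not independent. The class shares by direction among windows with a gene ID are not given here. A non-coding RNA was nearest to 256 of 499 windows higher in Wt25 (51.3%) and to 218 of 274 windows higher in AA10 (79.6%; Fisher's exact test, two-sided, adjusted P = 1.40e-14). A protein-coding gene was nearest to 180 Wt25 windows (36.1%) and 33 AA10 windows (12.0%; adjusted P = 2.30e-13 by the same exact test). Pseudogenes were nearest to 12.6% and 8.39% (adjusted P = 0.125, exact). The bars of nearest gene class show the wide coding segment in Wt25, of which 81 windows belonged to Gm8978. Without the Gm8978 windows, the non-coding shares were 61.2% and 79.6% (adjusted P = 1.21e-06, exact) and the pseudogene shares 15.1% and 8.39% (adjusted P = 0.0126, exact). The protein-coding share in Wt25 then fell to 23.7%, against 12.0% in AA10, and the odds ratio from 4.12 to 2.27 (adjusted P = 0.000221, exact). Counting each nearest gene once per direction, the non-coding shares were 65.0% of 206 genes and 76.2% of 172 genes (adjusted P = 0.0782, exact), and none of the 4 classes passed the threshold. The protein-coding shares were then 19.4% and 15.7% (odds ratio 1.29, adjusted P = 0.556, exact). The pseudogene shares were 15.5% and 8.14%, with an odds ratio of 2.08 that was no smaller than the 1.58 over all windows (adjusted P = 0.0782, exact).

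**Figure D1:**
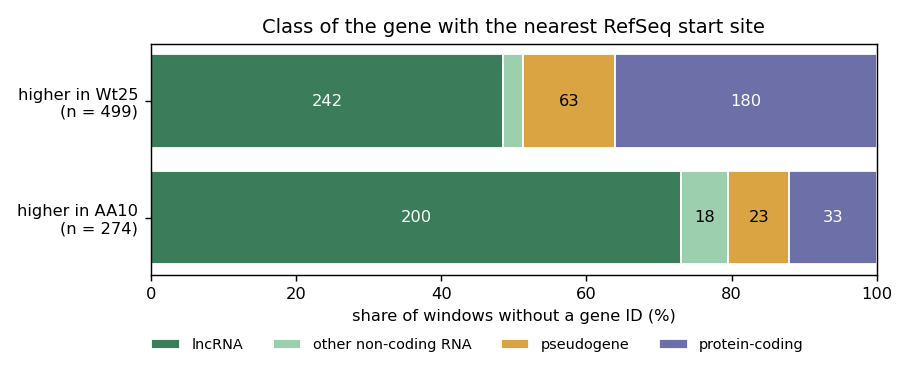
Share of windows without a gene ID (x axis, %) by class of the gene with the nearest RefSeq start site, for the 499 windows with higher 5hmC in Wt25 and the 274 with higher 5hmC in AA10; numbers inside the bars are windows. The lncRNA segment holds 242 Wt25 and 200 AA10 windows and the protein-coding segment 180 and 33.

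The share of windows higher in Wt25 was examined next. It was 64.6% among the 773 windows (95% Wilson interval 61.1 to 67.8%), 58.1% among windows with a gene ID (57.4 to 58.8%) and 58.4% over all listed windows. The odds ratio was 1.31 (Fisher's exact test, two-sided, P = 0.000354). Intervals and exact tests treat windows as independent and cover counting error only, while neighbouring windows share fragments. A single gene carried the excess. After the 81 windows nearest to Gm8978 were left out, 60.4% were higher in Wt25 (odds ratio 1.10, P = 0.240, exact), and with windows less than 1 kb apart joined to regions the shares were 60.8% and 59.9% (odds ratio 1.04, P = 0.676, exact). When each nearest gene was counted once per direction, 54.5% against 57.6% were higher in Wt25 (odds ratio 0.88, P = 0.242, exact). The plot of the direction under each way of counting shows that the intervals of both kinds of window overlapped in all settings but 2, namely all windows and all windows without chromosome 6.

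**Figure D2:**
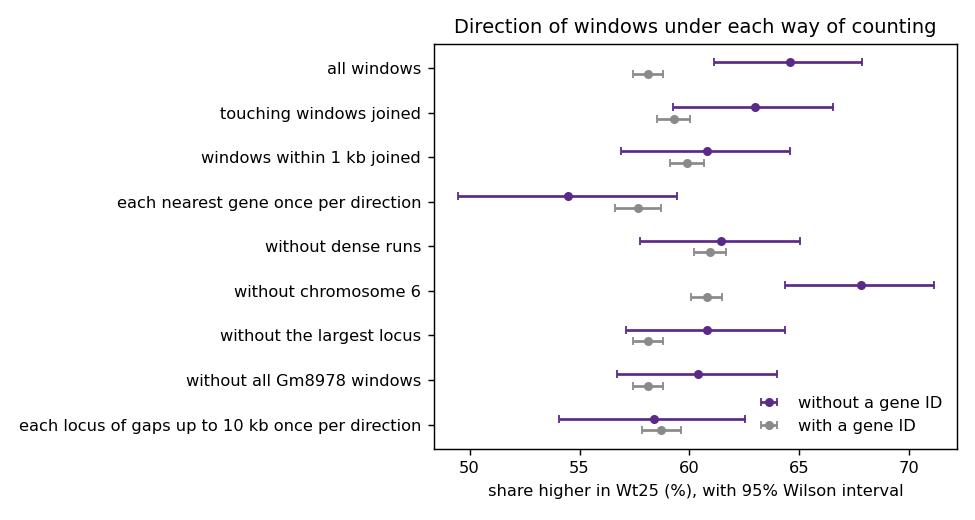
Share of windows, regions or genes with higher 5hmC in Wt25 (x axis, %, with 95% Wilson intervals) without a gene ID (purple) and with a gene ID (grey) under each way of counting. The purple point moves from 64.6% over all windows to 60.4% without the Gm8978 windows, and the grey points stay between 57.6% and 60.9%.

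Most places at which members lay held 1 member. Joined at gaps of up to 10 kb without regard to windows with a gene ID, the 773 windows formed 503 loci. Of these, 390 held 1 window, 82 held 2 and 11 held at least 5. The 11 largest loci contained 153 windows. Direction was mostly uniform within places: of 113 loci with several windows, 102 held windows of a single direction, and no mixed locus had more than 3 windows. The same share was not computed for windows with a gene ID. Of the 11 largest loci, 7 were higher in Wt25 throughout and 4 were higher in AA10 throughout. By nearest gene, 189 of 337 genes (56.1%) had 1 window and 41 had windows of both directions. Direction often matched that of nearby windows with a gene ID. A window with a gene ID lay within 10 kb of 59 members, and the closest such window had the same direction for 57 of them. Within 100 kb, this held for 254 of 283 Wt25 members (89.8%) and for 97 of 143 AA10 members (67.8%). Over all windows with a gene ID, 58.1% were higher in Wt25. Members of a cluster can share the same closest window, so these pairs were not independent. The 81 windows nearest to Gm8978, for example, had 4 windows with a gene ID within 60 kb of its start. Agreement among windows with a gene ID was not measured.

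The largest accumulation was at Gm8978 on chromosome 19 (33613149 to 33625249, minus strand), a predicted protein-coding gene beside the lipase-like gene Lipo3. All 81 windows nearest to its start site were higher in Wt25, 74 of them in a locus of 34.8 kb (chr19:33609403-33644200) and 7 in a second locus (chr19:33658803-33668200). They ran from 42.9 kb upstream to 15.7 kb downstream of the start, with 34 inside the gene (26 in introns, 5 in coding exons). The 4 windows with a gene ID within 60 kb carried the ID of Lipo3 and were also higher in Wt25. The sequence of this cluster stood apart. The windows held a mean of 1.67 CpGs (0.842 per 100 bp), against 3.38 in the other 692 members, their median GC content was 37.9%, and a median of 36.5% of the 32-base words of a window occurred more than once in the genome. Whether mapping in repeated sequence had a part in the cluster was not tested.

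Further Wt25 loci surrounded named or predicted genes. Gm4832, a predicted protein-coding gene on chromosome 17, had 13 windows, 12 of them in chr17:88111003-88129400. Its 2 promoter windows were adjacent, 211 and 11 bp upstream of the start, and no window with a gene ID lay within 60 kb. On chromosome 8, 12 windows from chr8:111431403-111464000 lay between Fa2h and the 3′ part of Wdr59, a subunit of the GATOR2 complex that acts on mTORC1. Of 5 members inside Wdr59, 2 were nearest to the start of Fa2h, and 7 windows with a gene ID inside this gene were likewise higher in Wt25. The lncRNA BC018473 on chromosome 11 had 15 windows in 2 loci (9 windows in chr11:116740603-116759600 and 6 in chr11:116725803-116730400), 3 of them in its exons. All 9 windows with a gene ID within 60 kb of it were higher in Wt25. C4bp-ps1, the pseudogene of the complement regulator C4bp on chromosome 1, had 7 windows (chr1:130673603-130690200), of which 1 lay 130 bp upstream of its start.

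The AA10 loci had lncRNAs as nearest genes. E330020D12Rik on chromosome 1, a gene 10.0 kb long, had 14 windows, 8 in chr1:153402403-153415000 and 6 in chr1:153375603-153385600. Of the 8, those 11.5 and 11.7 kb from its start lay beyond its 3′ end, and the others in its introns, an exon and its promoter. The 6 all lay beyond its 3′ end. The gene was flanked by 20 windows with a gene ID within 60 kb, all higher in AA10 as well. Dlx6os1, an antisense lncRNA of the Dlx5 and Dlx6 homeobox locus that is known from forebrain interneurons, had 7 windows. They lay at chr6:6839403-6839600 and within chr6:6850203-6862400, 5 in introns and 2 in the promoter of one of its transcripts, 1033 and 1233 bp upstream of the start of Dlx6. These windows held 1 to 7 CpGs, and no window with a gene ID was listed within 60 kb. Gm6117 on chromosome 6 had 6 windows in 6.8 kb (chr6:31582203-31589000) downstream of the gene, and the 10 windows with a gene ID on its other side, all assigned to Podxl, a sialomucin of the ESC surface, were higher in AA10. Dlx6os1 and Gm6117 both lie on chromosome 6, where only 11.9% of windows with a gene ID were higher in Wt25. The AA10 direction was thus common on this chromosome and not particular to these genes. The map of listed windows around the 7 genes shows that filled and open points of a gene had the same colour throughout.

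**Figure D3:**
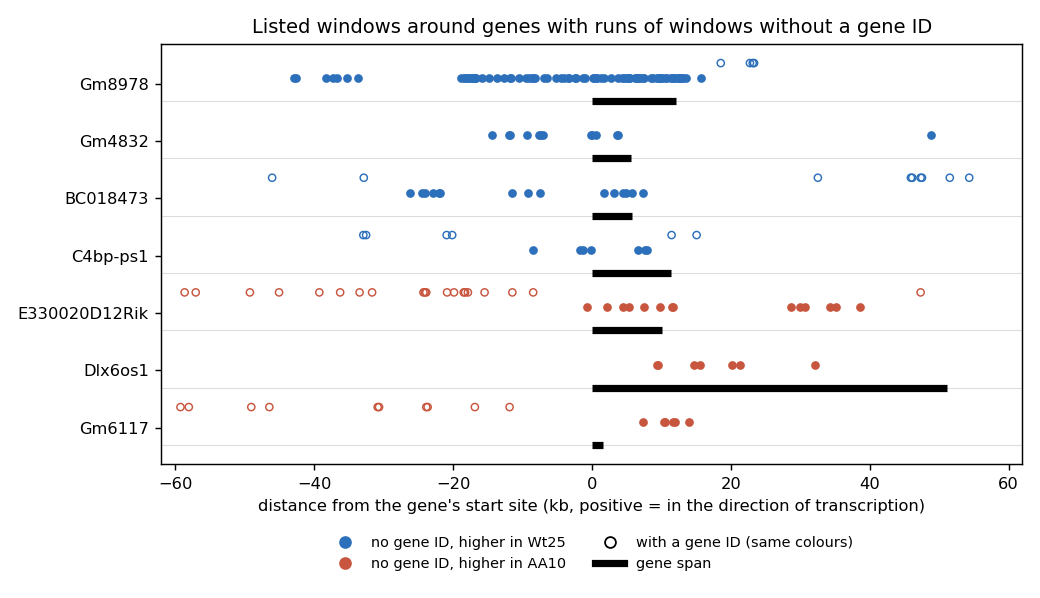
Positions of listed windows around 7 genes with runs of members (x axis, distance in kb from the outermost start site of the gene, positive in the direction of transcription; black bar, gene span; filled points, windows without a gene ID; open points, windows with one; blue, higher in Wt25; red, higher in AA10). Gm8978 has 81 filled blue points and E330020D12Rik 14 filled red points, and no gene shows both colours.

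Outside these loci, several nearest genes had windows that were spread over long distances. Rprl2, an RNase P RNA-like gene on chromosome 3, was nearest to 20 windows, 7 higher in Wt25 and 13 higher in AA10, at distances from 53.9 to 657 kb. The lncRNAs Gm1653 (9 Wt25 windows, 1.76 to 552 kb away) and Gm4668 (6 Wt25 and 1 AA10 windows, 100 to 461 kb) and the pseudogenes BC052688 (8 Wt25 windows, 18.5 to 114 kb) and 4930515G16Rik (2 Wt25 and 4 AA10 windows, 291 to 680 kb) were similar. Dnajb6, which encodes an Hsp40 co-chaperone, had 9 Wt25 windows 18.7 to 88.7 kb from its start. The remaining genes among the 10 with most AA10 windows were Gm35986 with 5 windows and BB283400, Gm21269, Gm15743 and C330024C12Rik with 4 each, of which Gm21269 also had 1 Wt25 window. Over all members the median distance to the nearest start site was 21.6 kb, against 21.5 kb for windows with a gene ID, and the median distance to the nearest protein-coding start site was 44.3 kb.

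Promoter windows were few. Defined as 1 kb upstream to 100 bp downstream of a start site, promoters of all transcripts held 20 members (2.59%), against 2.93% of windows with a gene ID (adjusted P = 0.884, exact). They comprised 14 windows higher in Wt25 and 6 higher in AA10 at 15 nearest genes. The 6 AA10 windows were the Dlx6os1 pair, 1 window 13 bp upstream of Mira, 1 window 263 bp upstream of Gm29688, 1 window 668 bp upstream of E330020D12Rik and 1 window 169 bp upstream of 5730552O08Rik. Mira is a lncRNA of the Hoxa cluster between Hoxa6 and Hoxa7, and its window (chr6:52215203-52215400) held 1 CpG. At 6 of the 15 genes, the start of another, protein-coding gene lay within 2 kb of the window. Besides Dlx6 these were 5 genes with higher 5hmC in Wt25. The 2 windows at Gm20554 held 7 and 9 CpGs and lay inside Irx2, an Iroquois homeobox gene, 919 and 719 bp upstream of an internal start site of that gene. The window at A230070E04Rik with 7 CpGs lay 1503 bp downstream of the start of Nefm, the medium neurofilament chain. The window at 9330162012Rik with 6 CpGs lay 560 bp downstream of the start of Aldh5a1, the succinic semialdehyde dehydrogenase of GABA breakdown. Those at Gm38431 and 2810032G03Rik lay 502 bp upstream of Raver1 and 819 bp upstream of Klhl29. The other Wt25 promoter windows were at Gm4832, C4bp-ps1, Defa-ps12 (961 bp upstream), Gm11418 (658 and 858 bp upstream, inside Asic2) and 6330403K07Rik (484 and 684 bp upstream).

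Members were more often intergenic and less often intronic than windows with a gene ID. Intergenic positions held 425 members (55.0%) against 44.9% of the other windows (odds ratio 1.50, adjusted P = 9.99e-08, exact), and introns 259 members (33.5%) against 44.8% (odds ratio 0.62, adjusted P = 3.11e-09, exact). Exons of non-coding transcripts held 19 members (2.46%) against 0.366% (odds ratio 6.86, adjusted P = 4.13e-09, exact), a class tied to the rule through the nearest transcript. The intron and intergenic shares were not independent of the rule either. A coding gene was nearest to 27.6% of members against 82.1% of windows with a gene ID, and features came from the same RefSeq transcripts. How much of these differences follows from the rule was not tested. Coding exons, the 5′ and 3′ UTRs and termination sites did not pass the test, with 1.94% against 3.07% for coding exons (adjusted P = 0.171, exact), although without the Gm8978 windows coding exons passed with 1.45% against 3.07% (adjusted P = 0.0244, exact). Non-coding exon windows included BC018473 with 3 members and, named after their values were seen, C130021I20Rik with 14 CpGs, 1403 bp upstream of the LIM homeobox gene Lmx1b, and Hymai, an imprinted transcript inside Plagl1, with 1 AA10 window.

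Many members lay inside coding genes. The midpoint of 260 windows (33.6%) fell in a protein-coding RefSeq gene, against 52.0% of windows with a gene ID, 145 (18.8%) fell in other RefSeq genes alone, and 368 (47.6%) in no gene. In 111 of the 260, the nearest transcript overlapped the host on the opposite strand, in 43 it overlapped on the same strand, in 34 it lay outside the host and in 72 it was the host itself. There were 133 host genes, of which 80 had 1 member and 118 had members of a single direction. Besides Gm8978, 13 hosts had at least 4 members. Btbd9, a BTB-domain gene, had 5 Wt25 and 3 AA10 members around the pseudogene Gm6402. Zmiz1, a PIAS-like transcriptional coactivator, had 6 Wt25 members near 4931406H21Rik and Gm45915. The kinase gene Map4k5 and Wdr59 had 5 Wt25 members each, and Trip11, Asic2, Cdh18 and Arhgef33 had 4 Wt25 members each. Dusp16, a MAP kinase phosphatase gene, Trerf1 and the nuclear receptor gene Rora had 3 Wt25 and 1 AA10 members each.

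Elovl6, an elongase of long-chain fatty acids, was the only host gene with at least 4 members in which all were higher in AA10. Its 5 members lay in introns, nearest to the start of the antisense-oriented lncRNA Gm35986 at the 5′ end of Elovl6, and 3 of them were adjacent (chr3:129590803-129591400) with 5, 8 and 6 CpGs. No window of either direction inside Elovl6 carried a gene ID. The same held for 82 of the 133 host genes, while 51 host genes also held windows with a gene ID.

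Among 55 non-coding RNAs on a list of known names, 53 were found in RefSeq and 4 had members. Dlx6os1 had 7 AA10 windows. Platr22, a pluripotency-associated transcript, had 3 Wt25 windows, which lay 21.9 to 72.5 kb from its start. Mascrna, the small tRNA-like product of Malat1, had 2 Wt25 windows, 3.68 and 5.48 kb away. Pvt1, the lncRNA next to Myc, had 1 Wt25 window. Of the 55, 14 had windows with a gene ID, among them Platr20 and Platr27 with 3 Wt25 windows each and Platr26 with 3 AA10 windows. A snoRNA was the nearest gene of 5 AA10 windows, for Snord66 (2), Snord11, Snord71 and Snord98, and of 2 Wt25 windows, for Snora19 and Snord93. Nearest did not mean close. The distances were 1.445 and 3.645 kb for Snord66, 7.69 kb for Snord11, 17.0 kb for Snord71 and 38.7 kb for Snord93.

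The members were not spread over the chromosomes as the other windows were. Chromosome 19 held 107 members (13.8%) against 3.10% of windows with a gene ID (adjusted P = 7.20e-34, exact), but without the Gm8978 windows 26 members remained (3.76%, adjusted P = 0.554, exact). Chromosome 17 held 75 members (9.70% against 4.01%, adjusted P = 1.71e-10, exact), chromosome 3 held 55 (7.12% against 4.19%, adjusted P = 0.000704, exact) and chromosome 16 held 37 (4.79% against 2.40%, adjusted P = 0.000487, exact). Of the 55 members on chromosome 3, 20 were nearest to the single gene Rprl2, and the share without them was not tested. The empty field went with the nearest gene: only 11 of the 337 nearest genes of members were also nearest to a window with a gene ID. Windows of a gene were therefore not independent, although the exact tests treat them so. Chromosomes were not compared with each nearest gene counted once. Chromosomes 2, 5, 7, 10 and 13 held fewer members than the other windows would give, with 20 members on chromosome 5 (2.59% against 7.67%, adjusted P = 2.31e-08, exact). Of these, chromosome 13 (5.05% against 7.55%, adjusted P = 0.0184, exact) did not keep its direction once windows within 1 kb were joined (odds ratio 1.15, adjusted P = 0.755, exact). By direction, 40 of 46 members on chromosome 6 were higher in AA10, and of the windows with a gene ID on this chromosome only 11.9% were higher in Wt25. On chromosome 2, 10 of 25 members (40.0%) were higher in Wt25 against 74.4% of windows with a gene ID, and on chromosome 12 the shares were 78.6% of 28 members and 40.1%. These differences in direction within chromosomes were not tested.

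**Figure D4:**
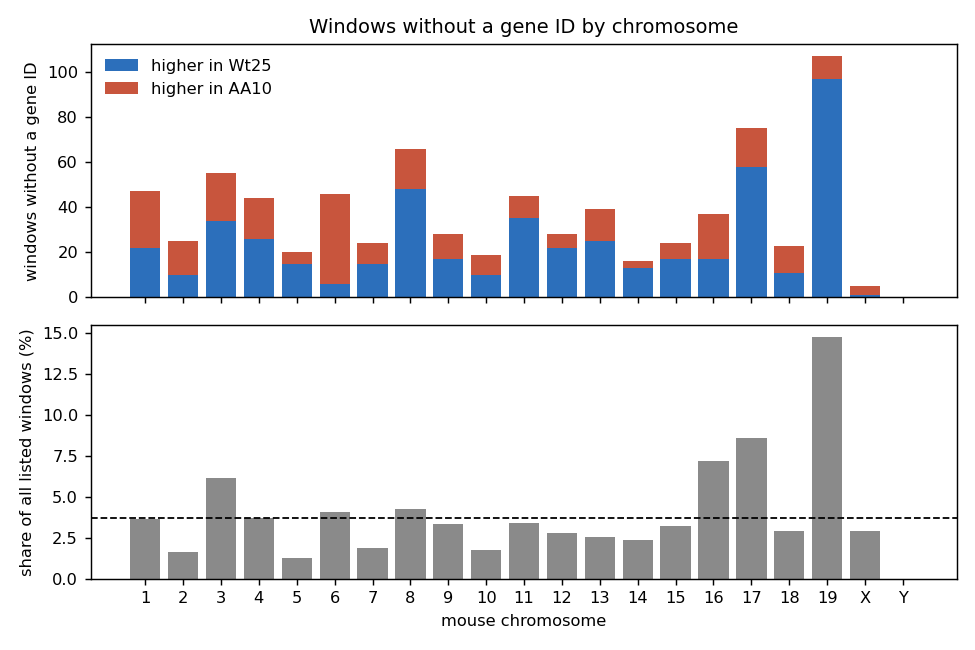
Windows without a gene ID by mouse chromosome: number with higher 5hmC in Wt25 (blue) and AA10 (red) in the upper panel, and their share of all listed windows (%) in the lower panel, with the share over all chromosomes, 3.73%, as a dashed line. Chromosome 19 reaches 107 windows and 14.7%, and chromosome 6 is mostly red with 40 of 46.

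Over both directions together, the members were like the other windows in CpG content. They held a mean of 3.20 CpGs per 198 bp (1.61 per 100 bp), windows with a gene ID held 3.21 (1.62 per 100 bp), and the genome holds 0.826 per 100 bp. Members higher in AA10 held 3.58 CpGs and those higher in Wt25 2.99. Windows with a gene ID ran the other way, with 3.14 in AA10 and 3.26 in Wt25. The Gm8978 windows, with a mean of 1.67, were among the Wt25 members, and the Wt25 mean without them is not given here. These differences were not tested. Median GC content was 46.5% against 47.0%, and 5 members held no CpG. The plot of CpG content shows that 51.9% of the Gm8978 windows held a single CpG, whereas the remaining members followed the windows with a gene ID. At least 10 CpGs were found in 20 members (2.59% against 2.21%), 10 in each direction. The CpG-richest was an AA10 window with 28 CpGs in an intron of Agap1 (chr1:89581403-89581600, nearest to 4933400F21Rik), followed by a Wt25 window with 22 CpGs in a coding exon of the protocadherin gene Dchs2 (chr3:83128203-83128400). More than 50% of the 32-base words of a window were repeated in 15.1% of members and in 13.7% of windows with a gene ID. These pooled shares hid opposite differences by direction. Among windows higher in Wt25, the share was 17.84% of members against 10.68% of windows with a gene ID. Among windows higher in AA10, it was 10.22% against 18.01%. Without the Gm8978 windows, the share over all members was 11.71%. The differences in repeated sequence were not tested.

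**Figure D5:**
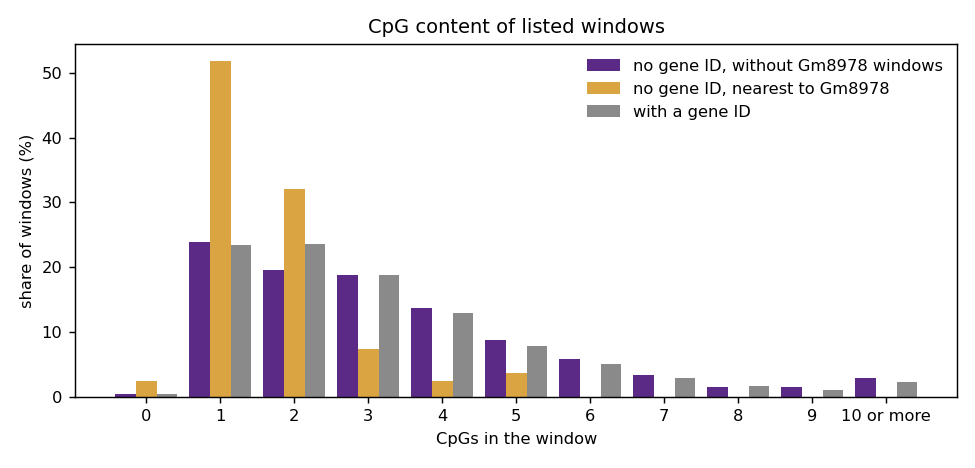
Share of windows (y axis, %) by number of CpGs in the 198 bp window (x axis) for members without the Gm8978 windows (purple), the 81 Gm8978 windows (yellow) and windows with a gene ID (grey). The yellow bars peak at 1 CpG with 51.9%, and the purple and grey bars nearly coincide.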

How the data were processed

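Enrichment of 5hmC was measured by immunoprecipitation and sequencing of genomic DNA from 3 5hmCIP libraries each of the Wt25 and AA10 lines. The authors aligned reads to GRCm38 with STAR, removed duplicates with Picard, tested 200 bp bins with MEDIPS using the replicates of each line together, dropped bins with IgG enrichment, tandem repeats or sequence of low complexity, and ran HOMER on the remainder for the nearest gene. The paper called MEDIPS bins at P < 0.05 with a fold change of at least 1, and names no adjustment for multiple testing of bins. Tool versions are not given in the sources used here. The deposited lists hold 0-based coordinates of 198 bp windows and an Ensembl ID, with no counts or P-values, so the depth of each window is unknown. The paper gives read totals per library, which were unequal, and these were not used here. Starts were raised by 1. Windows were matched to curated RefSeq transcripts of GRCm38.p6, to GENCODE vM21 and to the genome sequence. Promoters spanned 1000 bp upstream to 100 bp downstream of a start site, and features were taken at the window's midpoint in the default order of HOMER. Fisher's exact test (two-sided) compared shares, with P adjusted after Benjamini and Hochberg over the 8 features, 21 chromosomes or 4 classes (scipy 1.17.1, pandas 2.3.3, threshold 0.05); joins, features and tests were checked on simulated data. Repeated sequence was measured as 32-base words found more than once on the chromosomes. Genes were named by rule: the 10 nearest genes with most members per direction, loci of at least 5 members, all promoter members, hosts of at least 4 members and a list of known non-coding RNAs. Printed sequences exclude chromosome 18, UTRs, windows over 50% repeat-marked for the CpG choice, and stretches under 50 bases. Members and lists were chosen with earlier results of these data known. The H3K27ac, MNase, mRNA and input libraries were not analysed here, and a host gene that met the rule is not reported here.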

Additional observations from a re-analysis of the deposited data

How the results depend on the processing

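The higher Wt25 share of windows without a gene ID kept its direction but lost significance with touching windows joined (odds ratio 1.17, P = 0.0603, exact), windows within 1 kb joined (1.04), without runs of at least 20 windows of the same direction (1.02), without the largest locus (1.12) and, chosen after seeing the data, without all Gm8978 windows (1.10). It reversed with each nearest gene (0.88) and each locus (0.986) counted once per direction, the latter added after seeing the data. The nearest gene classes past the threshold went from 2 to 0 of 4 when each gene was counted once. The odds ratio of promoters turned from 0.879 to 1.07 with promoters of 1 kb on both sides. With windows within 1 kb joined, the odds ratios of chromosomes 1, 4, 12, 13 and 18 turned to 1.13, 1.13, 1.09, 1.15 and 1.02. Without dense runs those of chromosomes 4, 12, 13 and 18 were 1.07, 1.17, 1.26 and 1.14, and without the Gm8978 windows those of chromosomes 1, 4 and 11 were 1.09, 1.12 and 1.03. The cause was not tested. The counts of features and chromosomes past the threshold, of loci, of host windows and the mean CpG content stayed within their limits. No paired analysis was possible because the lists pool the replicates of each line. For the same reason no replicate could be left out, and no stricter threshold could be set, since the lists hold no P-values. Counts of windows carry no replicate error, and the read depth of each window is unknown.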
